A study of Mus musculus with 4 samples.

Results

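Alveolar epithelial type 2 (AT2) cells of 3-month-old mice, taken 30 days after bleomycin, were compared with AT2 cells of mice of that age given PBS and taken at day 0. Cells were chosen by 3 limits: at least 500 genes with a count, at most 20% of counts from mitochondrially encoded genes, and at least 5% of counts from Sftpc, which encodes surfactant protein C. These limits kept 2308 of 2452 barcodes from the 3-month PBS library and 2299 of 2646 from the 3-month bleomycin library, 4607 cells together. The series holds 10911 barcodes, which include those of the 12-month libraries. Counts of unique molecular identifiers were summed over the cells of each library and scaled to CPM, the level if the gated cells of a library held 1000000 counts. The 4796 genes that stood at 20 CPM or more in either library are described.

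Every mouse had the genotype Sftpc-creER;Rosa26-mTmG, in which tamoxifen activates a Cre recombinase expressed from the Sftpc promoter and so turns on membrane GFP in AT2 cells and in whatever they give rise to. Tamoxifen was given to both groups, and 14 days later the mice received bleomycin at 0.8 U/kg or PBS into the trachea. GFP-positive cells that lacked CD45 (a leukocyte antigen) and CD31 (an endothelial antigen) were sorted from 3 pooled mice per library. Treatment and day of sampling cannot be told apart, since PBS cells were taken at day 0 and bleomycin cells at day 30. Because Cre expression and the choice of cells both rest on Sftpc, labelled descendants with little Sftpc lie outside the cells described. Each group was 1 library, so the differences below cannot be checked against replicates and none was tested; brackets hold exact 95% intervals that cover counting error only. Libraries from 12-month-old mice of the same genotype and treatments are set beside these where named.

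AT2 cells make, store and recycle surfactant, the lipid and protein film that keeps alveoli from collapsing, and they serve as progenitors of the flat AT1 cells that carry out gas exchange. Bleomycin breaks DNA and injures the alveolar epithelium, and in mice it is widely used to provoke lung fibrosis. After such injury AT2 cells are known to take on inflammatory, keratin-expressing transitional and proliferating states before the epithelium is restored.

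The gated PBS cells held 10896642 counts with a median of 4563.5 per cell, and the gated bleomycin cells 20832613 with a median of 8552, so 1 count equalled 0.0918 CPM in PBS and 0.0480 CPM in bleomycin. Sftpc, on which the limit was set, took 13.3% of the PBS and 16.4% of the bleomycin counts. Just below the limit, at 4 to 5% Sftpc, lay 26 PBS and 16 bleomycin cells, and just above it, at 5 to 6%, lay 72 and 23. All 12 other AT2 markers were detected in both libraries, with a summed level of 86251 CPM in PBS and 105650 in bleomycin. The 3-month libraries shared 7 cell barcodes after gating. The Y-linked genes Ddx3y, Eif2s3y, Kdm5d and Uty summed to 74.7 CPM in PBS and 79.7 in bleomycin, and Xist stood at 0.459 and 1.06 CPM.

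Markers of other cell types were sparse and mostly higher in the bleomycin library. Macrophage markers summed to 5.23 CPM in PBS, with 5 of 12 detected and Ptprc, Mrc1, Marco, Adgre1 and the C1q genes at 0, and to 26.3 CPM in bleomycin, with 11 of 12 detected and Marco at 0. T or NK cell markers summed to 0.0918 and 4.66 CPM, mesenchymal markers to 3.03 and 12.1, endothelial markers to 18.6 and 55.9, B cell markers to 26.8 and 42.8 and mesothelial markers to 0 and 4.51. Erythroid markers summed to 13.5 and 0.144 CPM. Neutrophil markers summed to 13.3 and 8.06 CPM, with S100a8 (5.78 and 1.44) and S100a9 (3.95 and 1.49) lower and Retnlg (3.12 and 4.90) higher. Ciliated markers summed to 292 and 197 CPM, carried by Tppp3 (249.9 and 160.3) and Dynlrb2 (31.8 and 17.3), while the other 6 of 8, among them Foxj1 (0.551 and 1.49), were higher with bleomycin. Club cell markers, almost entirely the secretoglobin Scgb1a1, summed to 4925 CPM in PBS and 4716 in bleomycin. Within that list Scgb3a1 (10.6 and 53.3 CPM) and Aldh1a1 (1.74 and 5.57) were higher with bleomycin, while Scgb3a2 (55.5 and 52.9) and Cyp4b1 (9.64 and 7.73) were not. Basal cell markers summed to 0.367 and 3.79 CPM. Among the gated cells 1 in PBS and 13 in bleomycin held 5 or more counts of leukocyte markers. The part of these RNAs in the differences below was not tested.

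The PBS library of 3-month mice stood apart from the other 3 libraries of the series in heat shock and clock genes. Hspa1b, an inducible chaperone, was at 206 CPM there, against 4.42 in 3-month bleomycin, 3.31 in 12-month PBS and 3.11 in 12-month bleomycin. Dbp, an output factor of the circadian clock, was at 4.59 CPM there, against 111, 48.5 and 33.7 in the same order. Not every clock gene set it apart: Nr1d1 stood at 76.4 CPM there, between 49.3, 93.6 and 60.2 in the other libraries. The ratios of genes that did set it apart rest on that library, and the labels do not give the hour at which mice were killed.

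Of the 4796 genes compared, 130 (2.71%) exceeded PBS by 2-fold or more with bleomycin and 160 (3.34%) lay below it by as much. At 1.5-fold the counts were 432 genes higher (9.01%) and 530 lower (11.1%). The median log2 ratio was -0.01, with 10th and 90th percentiles of -0.62 and 0.55. Among the 158 genes at 1000 CPM or more, 4 were 2-fold higher and 7 lower. In these sums fewer expressing cells and less RNA per cell cannot be told apart. A gene that reached 20 CPM in a single library was counted through its higher level, so its direction was fixed by that limit. Examples with bleomycin only are Saa3, Retnla, Kng2, Fgg, Ifitm3, Cxcl1, Ly6i, Ly6a, H2-Q7, H2-Q6, Id1 and Id3. Examples with PBS only are Hspa1a, Hspa1b, Hsph1, Bex1, Lpl, Mgll and Pon1. Counts and medians of lists below depend in part on that limit.

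**Figure D1:**
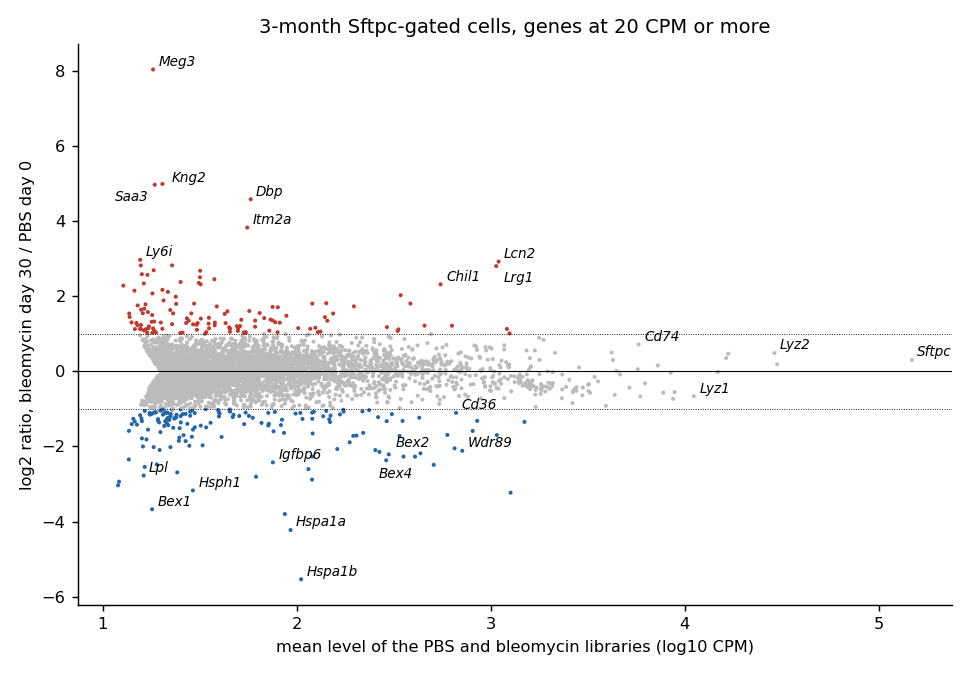
Log2 ratio of bleomycin day 30 to PBS day 0 against the mean level of both libraries (log10 CPM) for the 4796 genes compared in 3-month Sftpc-gated cells. Red points are the 130 genes at least 2-fold higher and blue points the 160 at least 2-fold lower, with dotted lines at 2-fold; Meg3 lies highest and Hspa1b lowest.

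The highest ratios belonged to secreted acute phase proteins, a non-coding RNA and a clock factor. Meg3, an imprinted long non-coding RNA (chr12:109541001-109571726, GRCm38), had 1 count in the PBS cells and 755 in the bleomycin cells, a ratio of 395 (70.7 to 15618). The kininogen gene Kng2 (chr16:22985854-23029482) stood at 1.19 CPM in PBS and 39.4 in bleomycin, 33.0-fold higher (19.2 to 62.3). Saa3, a serum amyloid protein made at inflamed surfaces (chr7:46711998-46715700), stood at 1.10 and 36.0 CPM, 32.6-fold higher (18.6 to 63.5). These 3 genes were near the floor of the PBS library, where 3 counts equal 0.275 CPM.

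Several genes of higher level followed. Lcn2, which binds bacterial siderophores (chr2:32384633-32388252), went from 256 CPM in PBS to 1942 in bleomycin, 7.59-fold higher (7.31 to 7.89). Lrg1, a secreted leucine-rich glycoprotein (chr17:56119678-56122001), stood at 268 and 1869 CPM, 6.99-fold higher (6.73 to 7.26). Itm2a, a membrane protein of the BRICHOS family like surfactant protein C itself, stood at 7.25 and 104 CPM, 14.3-fold higher (11.4 to 18.2). Lcn2 and Lrg1 were also among the 10 genes with the largest difference in CPM.

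Among the rest of the 15 highest ratios, Slc26a4, an anion exchanger, was 7.13-fold higher (5.50 to 9.41), Fgg, the fibrinogen gamma chain, 7.15-fold (5.22 to 10.0) and Col6a2, a collagen VI chain, 6.52-fold (4.93 to 8.80). Tspan4, a tetraspanin, was 6.45-fold higher (5.21 to 8.05) and Tubb2a, a beta-tubulin, 5.71-fold (4.66 to 7.05). Cd14, a co-receptor for bacterial lipopolysaccharide, was 5.99-fold higher (4.52 to 8.09), at 4.86 and 29.1 CPM. Ly6i (7.94-fold) and Retnla (5.50-fold) belong to families described below, and Dbp (24.2-fold) to the clock.

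The lowest ratios held chaperones, Bex genes and enzymes of lipid handling. Hspa1b was 46.7-fold lower with bleomycin (37.9 to 58.2), Hspa1a 18.8-fold (16.2 to 21.8) and Hsph1 9.04-fold (7.42 to 11.1). Bex1, a small brain-expressed X-linked protein (chrX:136213972-136215513), was 12.9-fold lower (9.64 to 17.4), at 33.3 and 2.59 CPM. Lpl, the lipoprotein lipase, was 6.87-fold lower (5.39 to 8.83) and Mgll, the monoglyceride lipase, 5.59-fold (4.53 to 6.94). Batf, a transcription factor of the AP-1 family, was 7.71-fold lower (5.76 to 10.5), Ppp1r1a, a protein phosphatase inhibitor, 5.85-fold (4.65 to 7.41), and Tle4, a transcriptional corepressor, 4.28-fold (3.53 to 5.21). Ptgs2os2, a non-coding RNA on the strand opposite Ptgs2, was 5.10-fold lower (4.002 to 6.54), and its counts are uncertain because strand use in the counting is not stated.

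Surfactant and AT2 identity genes as a list stood level: of 23 members, all above 20 CPM, 3 passed 1.5-fold above PBS, 1 below and 19 neither, around a median log2 ratio of 0.05. The collectin Sftpa1 was at 28065 CPM in PBS and 31925 in bleomycin, Sftpb, which spreads the surfactant film, at 14379 and 18369, and the collectin Sftpd at 3483 and 4932. Sftpd was thus 1.42-fold higher (1.40 to 1.43), Sftpb 1.28-fold and Sftpa1 1.14-fold. Napsa, the aspartic protease that processes surfactant protein B, was 1.79-fold higher (1.76 to 1.82), at 1342 and 2402 CPM. Muc1, a membrane mucin, was 1.63-fold higher (1.58 to 1.69), at 449 and 733 CPM.

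The lipid transporter and storage genes of the lamellar body were close to their PBS level. Abca3, the lamellar body phospholipid pump, stood at 654 and 592 CPM, Lamp3 at 984 and 884, and the phosphate transporter Slc34a2 at 3606 and 3258. Of the AT2 transcription factors, Etv5 stood at 324 and 326 CPM, Nkx2-1 at 296 and 257, Cebpa at 302 and 238 and Foxa2 at 86.5 and 70.7. In cells restricted to 4000 to 8000 counts, a range chosen after the data were seen, the log2 ratios of Abca3 (0.0485), Slc34a2 (0.19), Nkx2-1 (0.055) and Foxa2 (0.0093) were above 0, so no direction is given for them.

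The 2 lysozyme genes, neighbours on chromosome 10, differed in direction. Lyz2 was at 24196 CPM in PBS and 33910 in bleomycin, 1.40-fold higher, and showed the largest difference in CPM after Sftpc. Lyz1 was at 13673 and 8640 CPM, 1.58-fold lower (1.57 to 1.59), and showed the largest loss. Malat1, a nuclear non-coding RNA, had the next largest gain, at 14084 and 19492 CPM. As the lysozyme genes are close copies, the division of counts between them is uncertain. Chil1, a secreted chitinase-like protein, was 4.99-fold higher (4.76 to 5.22), at 184 and 919 CPM, whereas the acidic chitinase Chia1 was 1.82-fold lower (1.77 to 1.88), at 701 and 384. The remaining large losses in CPM included Cbr2, a carbonyl reductase (3558 and 2788 CPM), S100g, a calcium-binding protein (3594 and 2837), and Sfta2, a surfactant-associated secreted protein (2057 and 1339).

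Acute phase and injury-activated AT2 genes were mostly higher. Of 20 listed, 13 reached 20 CPM, and of these 7 exceeded PBS by 1.5-fold and 1 lay below it by as much. Their median log2 ratio was 1.06, against -0.01 over all genes. Pglyrp1, which binds bacterial cell wall, was 3.50-fold higher (3.21 to 3.82), at 53.5 and 187 CPM. Itih4, a plasma protease inhibitor heavy chain, was 2.09-fold higher (1.94 to 2.25), and Hp, haptoglobin, 1.42-fold (1.38 to 1.46), at 581 and 823 CPM. Retnla, a resistin-like secreted protein known from allergic and alternatively activated responses, stood at 11.6 and 63.7 CPM; its log2 ratio of 2.46 was 4.81 without the Sftpc limit and 1.53 without cells holding any other cell type's marker. Il33, an epithelial alarmin, stood at 241 and 273 CPM and Glrx at 146 and 151. Cells in the range of 4000 to 8000 counts gave Pglyrp1 a log2 ratio of 0.99 against 1.81 in all gated cells, and Chil1 1.68 against 2.32.

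Coagulation and complement genes were mainly below the level limit. Of 20 coagulation and kinin genes 3 reached 20 CPM, namely Kng2, Fgg and the serpin Serpinb6b, the last at 124 and 127 CPM. Among 15 complement genes 5 were counted: C3, the central component, was 2.07-fold higher (1.85 to 2.32), at 35.5 and 73.4 CPM, and Clu, clusterin, a secreted chaperone that also restrains complement, 3.32-fold (3.11 to 3.56), at 91.2 and 303. The regulators Cd55 (49.1 and 40.7 CPM) and Cd59a (123 and 112) were within 1.5-fold.

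**Figure D2:**
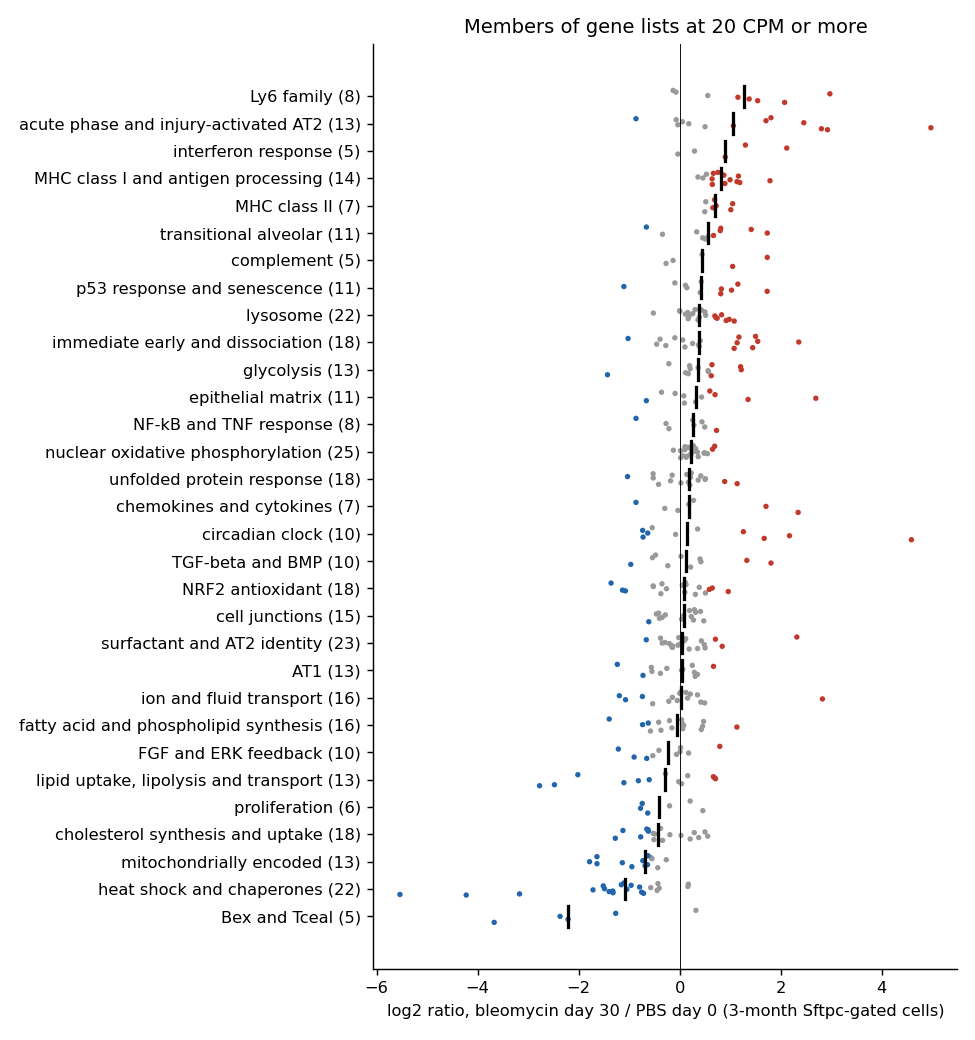
Log2 ratio of bleomycin day 30 to PBS day 0 for each member at 20 CPM or more of the gene lists with 5 or more such members; the number counted stands in brackets. Black bars are medians, red and blue points pass 1.5-fold above and below PBS; medians run from 1.26 for the Ly6 family to -2.21 for Bex and Tceal genes.

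Antigen presentation genes were higher throughout the lists. All 14 counted members of the MHC class I and antigen processing list had ratios above 1, 11 of them at least 1.5-fold, with a median log2 ratio of 0.82. H2-D1 stood at 1243 CPM in PBS and 2310 in bleomycin, H2-K1 at 734 and 1148 and the light chain B2m at 773 and 1205. Immunoproteasome genes Psmb8 (2.24-fold, 2.08 to 2.42) and Psmb9 (1.83-fold, 1.62 to 2.09) and the proteasome activators Psme1 (1.59-fold) and Psme2 (1.69-fold) were higher too. The non-classical genes H2-Q7 (3.47-fold, 2.74 to 4.44), H2-Q4 (2.28-fold) and H2-Q6 (2.20-fold) are close copies, so their counts may be split between them.

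For MHC class II, which AT2 cells are known to express, all 7 counted genes were above their PBS level and 5 were at least 1.5-fold higher, with a median log2 ratio of 0.69. The invariant chain Cd74 was at 4376 and 7216 CPM, 1.65-fold higher (1.63 to 1.67). H2-Ab1, a class II beta chain, was at 830 and 1673 CPM, 2.02-fold higher (1.97 to 2.06), and the alpha chain H2-Aa at 1782 and 2512. The peptide-loading gene H2-DMa was 2.07-fold higher (1.92 to 2.23). Macrophages carry class II as well. Their summed markers were at 26.3 CPM or less in these cells, and the part of leukocyte RNA in the class II difference was not tested. In cells thinned to 3000 counts, the class II list gave a median of 19 counts per PBS cell and 32 per bleomycin cell. The 48 thinned leukocytes of the bleomycin library had a median of 8. Their 90th percentile was 269, against 56 in gated bleomycin cells.

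Interferon response genes were mostly too low to count, with 5 of 28 at 20 CPM or more, 3 of them above PBS by 1.5-fold. Ifitm3, which blocks virus entry at membranes, stood at 8.08 and 35.2 CPM, 4.36-fold higher (3.49 to 5.51), and Bst2, tetherin, at 21.8 and 53.9. Ifi27 was 1.87-fold higher (1.77 to 1.97), whereas Ifi27l2a stood at 23.7 and 23.1 CPM. In the Ly6 family of GPI-anchored surface proteins 5 of 8 counted genes passed 1.5-fold above PBS, none passed it below, and the median log2 ratio was 1.26. Ly6i stood at 3.49 and 27.7 CPM, Ly6a at 6.88 and 29.2, Ly6c1 at 78.7 and 229 and Ly6d at 63.1 and 140. Ly6 genes are close copies with uncertain division of counts, and their median was 0.65 in cells of 4000 to 8000 counts.

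Chemokine genes diverged. Cxcl1, which attracts neutrophils, was 5.11-fold higher (3.90 to 6.82), at 5.32 and 27.2 CPM, and Cxcl17, a mucosal chemokine-like protein, 3.27-fold (2.94 to 3.64), at 37.4 and 122. Cxcl15, the lung-specific chemokine lungkine, stood at 8586 and 8375 CPM; its log2 ratio of -0.04 was 0.0399 with scaling that left out the 20 most abundant genes and 0.0168 with Sftpc left out of the total. Csf2, the growth factor GM-CSF that alveolar macrophages need, was 1.82-fold lower (1.53 to 2.17), at 24.04 and 13.2 CPM. Of 8 counted NF-kB and TNF response genes 1 was at least 1.5-fold higher, the inhibitor Nfkbia (60.5 and 100.3 CPM), and 1 lower, Csf2; the adhesion molecule Icam1 stood at 164 and 231.

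Transitional alveolar genes, which mark cells between the AT2 and AT1 states, were moderately higher. Of 20 listed, 11 were counted, of which 5 passed 1.5-fold above PBS and 1 below; the median log2 ratio was 0.56. The keratins Krt8 (176 and 251 CPM), Krt18 (218 and 298), Krt19 (59.2 and 87.2) and Krt7 (77.6 and 123) were between 1.37-fold and 1.59-fold higher. The EGF receptor ligands Hbegf (2.67-fold, 2.26 to 3.19) and Areg (1.74-fold, 1.58 to 1.92) were higher as well. Nupr1, a stress-induced nuclear protein, was 1.58-fold lower (1.53 to 1.63), at 650 and 411 CPM, and Sfn stood at 64.1 and 50.5. Cldn4, a claudin, had 0.184 CPM in PBS and 5.28 in bleomycin and so stayed below the level limit.

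The Krt8 difference depended on the Sftpc share of the cells. Among cells with 5 to 10% Sftpc the log2 ratio of Krt8 was 1.74, among those with 10 to 15% 0.72, with 15 to 20% 0.35, and from 20% upward -0.01. The bleomycin cells with 5 to 10% Sftpc numbered 197 and held Krt8 at 525 CPM, against 157 in the 681 PBS cells of that range. For Lcn2 the log2 ratio lay between 2.72 and 3.08 in the same ranges, for Lrg1 between 2.20 and 3.05, and for Bex4 between -2.68 and -2.22.

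AT1 genes as a list stood level in these Sftpc-rich cells, with 1 of 13 counted members past 1.5-fold above PBS, 2 below and a median log2 ratio of 0.04. Ager, the AT1 receptor RAGE, was at 1598 and 1975 CPM, Aqp5, a water channel, at 482 and 615, and Cldn18 at 639 and 655. Limch1, an actomyosin regulator, was 2.36-fold lower (2.13 to 2.60), at 83.3 and 35.4 CPM, and Hopx, an AT1 homeodomain factor, 1.66-fold (1.504 to 1.82), at 73.4 and 44.4. Without the Sftpc limit the log2 ratio of Hopx was 0.0755 and that of Sec14l3 0.18, against -0.73 and -0.56 with it.

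Of 11 counted p53 response and senescence genes 5 passed 1.5-fold above PBS and 1 below, and the median log2 ratio was 0.43. The cell cycle inhibitor Cdkn1a stood at 76.7 and 135 CPM, 1.76-fold higher (1.63 to 1.90). Bax, which permeabilises mitochondria in apoptosis, was 1.77-fold higher (1.64 to 1.91), Ccng1, cyclin G1, 2.04-fold (1.82 to 2.28), Plk2, a polo-like kinase, 2.23-fold (1.82 to 2.75) and Phlda3, an Akt repressor, 3.33-fold (2.86 to 3.89). In cells of 4000 to 8000 counts the log2 ratio of Phlda3 was 1.09 against 1.73. The stress cytokine Gdf15 was 2.15-fold lower (1.795 to 2.58), at 23.9 and 11.1 CPM. Proliferation genes were few at this level: of 22 listed 6 were counted, none at least 1.5-fold higher and 3 lower, among them the microtubule regulator Stmn1 (103 and 60.0 CPM) and the chromatin protein Hmgb2 (110 and 70.7).

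Heat shock and chaperone genes were mostly lower. Of 23 listed 22 were counted, 16 by 1.5-fold or more below PBS and none above it by as much; the median log2 ratio was -1.08. Hspa1a (chr17:34969190-34972156) stood at 176 and 9.41 CPM and Hspa1b (chr17:34956436-34959238) at 206 and 4.42; these neighbours are near-identical, so the division of counts between them is uncertain. Hspb1, a small heat shock protein, was 3.29-fold lower (3.10 to 3.48), at 300.2 and 91.3 CPM, and Dnajb1, an Hsp40 co-chaperone, 2.63-fold (2.41 to 2.89). The constitutive chaperone Hspa8 was at 1104 and 672 CPM, Hsp90aa1 at 501 and 201 and Hsp90ab1 at 687 and 408. Cryab, alpha-B crystallin (112 and 126 CPM), and Hspa4 (35.5 and 39.7) were the members not below PBS.

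The chaperone difference was spread over the cells. Thinned to 3000 counts, PBS cells had a median of 14 counts of the list and a 90th percentile of 24, and bleomycin cells 7 and 12. Hspa1b had a count in 38.01% of thinned PBS cells (35.9 to 40.2, Clopper-Pearson) and 1.25% of bleomycin cells (0.831 to 1.798). Of 48 leukocytes from the bleomycin library 2.08% had one (0.0527 to 11.1), too few cells to set a background level. At 12 months the list median was 0.21 over 17 counted genes. In the 12-month PBS library Hspa1a stood at 3.84 CPM and Hsph1 at 4.44, against 176 and 52.5 in the 3-month PBS library.

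The promoters of the 3 chaperone genes with the lowest ratios are shown because each holds a pair of heat shock factor recognition units, and because those of Hspa1b and Hspa1a are near copies. Each sequence is the 250 bases before a start site in RefSeq on GRCm38.p6, all on the minus strand: Hspa1b at chr17:34959239-34959488, Hspa1a at chr17:34972157-34972406 and Hsph1, for 1 of its 2 starts in the table, at chr5:149636337-149636586. Capitals mark the pair.
Hspa1b: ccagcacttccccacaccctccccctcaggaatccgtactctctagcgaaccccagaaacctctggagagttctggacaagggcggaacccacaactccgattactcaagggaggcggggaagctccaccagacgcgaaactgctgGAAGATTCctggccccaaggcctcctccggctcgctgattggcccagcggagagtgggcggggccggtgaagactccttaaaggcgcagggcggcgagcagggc
Hspa1a: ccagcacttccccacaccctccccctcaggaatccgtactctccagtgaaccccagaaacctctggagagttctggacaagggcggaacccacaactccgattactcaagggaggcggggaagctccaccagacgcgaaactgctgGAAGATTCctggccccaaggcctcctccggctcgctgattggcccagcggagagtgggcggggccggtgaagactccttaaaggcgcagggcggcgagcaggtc
Hsph1: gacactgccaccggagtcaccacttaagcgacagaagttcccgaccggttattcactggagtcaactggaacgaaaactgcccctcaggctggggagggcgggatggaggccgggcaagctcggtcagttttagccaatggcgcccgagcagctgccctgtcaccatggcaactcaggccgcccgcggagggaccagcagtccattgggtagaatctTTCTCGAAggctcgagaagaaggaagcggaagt
The motif marked is GAANNTTC or TTCNNGAA, which covers both strands, and it was chosen after the values had been seen. In Hspa1b and Hspa1a it begins 104 bases before the start, and 247 of their 250 promoter bases are the same (98.8%). It was found in 9 of the 18 chaperone genes of the list that have a promoter in the table, in 14.5% of the 27025 genes with one and in 11.7% of the 3747 counted genes with one. A match is a description of letters and not of binding.

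Circadian clock genes differed in direction. Of 20 listed 10 were counted, 4 at least 1.5-fold higher and 3 lower. The PAR bZIP output factors Dbp (4.59 and 111 CPM) and Tef (7.80 and 25.0), the period gene Per3 (7.34 and 33.3) and the nuclear receptor Nr1d2 (13.4 and 32.2) were higher with bleomycin. Clock, the activator subunit, was 1.66-fold lower (1.42 to 1.95), at 27.1 and 16.3 CPM, Per1 1.65-fold (31.1 and 18.8 CPM) and the nuclear receptor Nr1d1 1.55-fold (1.41 to 1.70). Below the level limit, the activators Arntl (17.7 and 2.69 CPM) and Npas2 (12.9 and 1.20) and the repressor Cry1 (13.6 and 2.45) were lower with bleomycin as well. The 4 higher genes reached 20 CPM only in the bleomycin library, and Clock and Per1 only in the PBS library. The counts of higher and lower clock genes therefore depend on that limit. Dbp had a count in 1.49% of thinned PBS cells and 26.6% of thinned bleomycin cells, against 10.4% of bleomycin leukocytes (3.47 to 22.7).

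The promoter of Per3 (chr4:151044666-151044915, minus strand, RefSeq on GRCm38.p6) is shown because it holds the D-box, the site at which Dbp and Tef are known to bind, in capitals.
Per3: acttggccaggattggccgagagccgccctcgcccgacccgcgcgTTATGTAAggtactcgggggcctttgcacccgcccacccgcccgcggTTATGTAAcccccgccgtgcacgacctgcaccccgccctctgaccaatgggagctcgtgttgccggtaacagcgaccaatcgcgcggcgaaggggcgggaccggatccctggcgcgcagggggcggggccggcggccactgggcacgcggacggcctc
The D-box searched, TTANGTAA or TTACNTAA, is in 2.44% of the 27025 genes with a promoter and in 1.76% of the counted ones. Among the 9 counted clock genes with a promoter it was found in Per3 alone, and the motif was chosen after the values had been seen. The E-box CACGTG, also searched, was found in 2 of those 9, Tef and Per1, and in 10.9% of the counted genes. STAT and NF-kB motifs were each found in 1 of 9 acute phase genes with a promoter, Itih4 and Pglyrp1 in that order. Over the counted genes these stood in 6.43% and 10.4%.

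**Figure D3:**
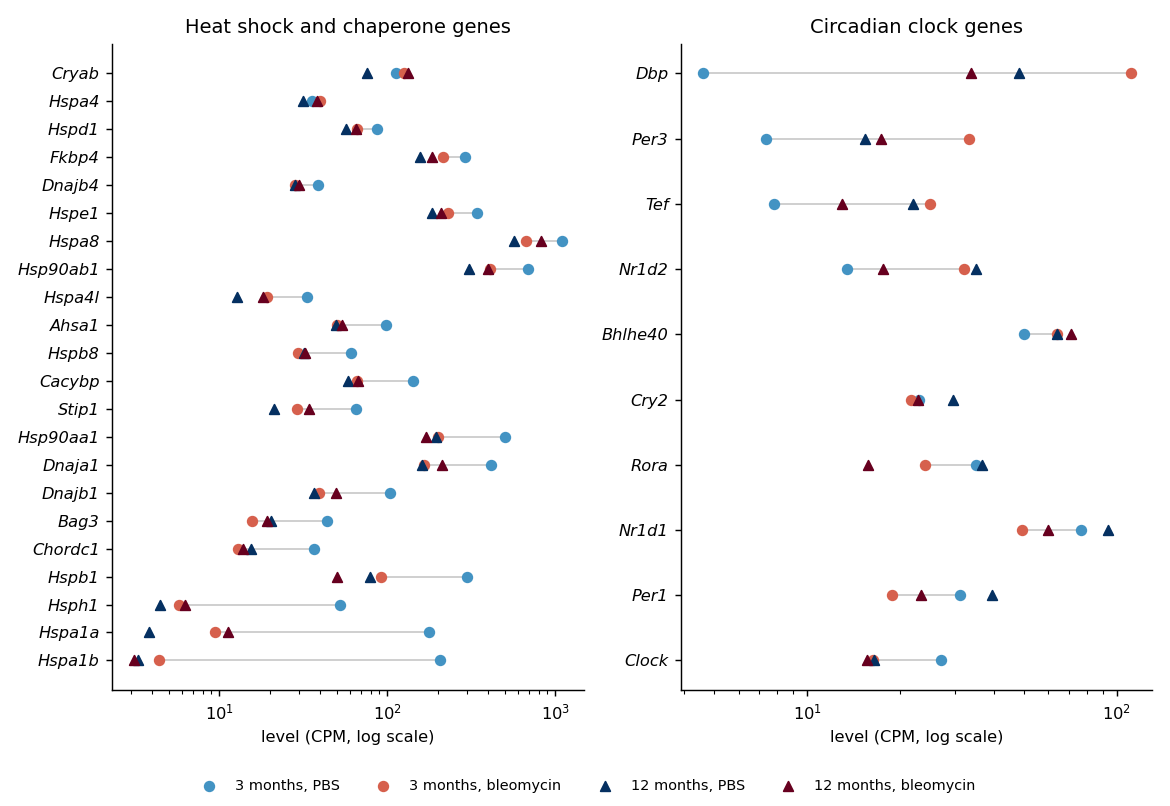
Level in CPM (log scale) of each counted heat shock and chaperone gene (left) and circadian clock gene (right) in the Sftpc-gated cells of the 4 libraries; grey lines join the 3-month PBS and bleomycin libraries. The 3-month PBS point lies to the right of the other libraries for most chaperones, such as Hspa1b at 206 CPM, and to the left of them for Dbp, Per3, Tef and Nr1d2.

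Immediate early genes, which respond within minutes to stress including tissue dissociation, were mixed. Of 18 counted, 7 passed 1.5-fold above PBS and 1 below, and the median log2 ratio was 0.38. Klf2, a Kruppel-like factor, was 5.14-fold higher (4.23 to 6.31), at 10.2 and 52.4 CPM, Klf4 2.93-fold (2.42 to 3.56), Fosb 2.72-fold (2.53 to 2.94) and Fos 2.11-fold (2.02 to 2.21). Zfp36, which destabilises inflammatory mRNAs, was 2.03-fold lower (1.92 to 2.15), at 233 and 115 CPM. Unfolded protein response genes were largely level (2 of 18 at least 1.5-fold higher and 1 lower). There the calcium-binding chaperone Calr (214 and 396 CPM) and the stress factor Atf3 (28.4 and 62.4) were higher and Herpud1, of the degradation machinery, was 2.05-fold lower, at 317 and 155. In cells of 4000 to 8000 counts the log2 ratio of Atf3 was 0.44 against 1.14, and that of Klf2 1.72 against 2.36.

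Cholesterol synthesis and uptake genes were level or lower. Of 18 counted 6 passed 1.5-fold below PBS and none above; the median log2 ratio was -0.44. Pmvk, a mevalonate pathway kinase, stood at 208 and 86.0 CPM, 2.42-fold lower (2.27 to 2.58). The regulators Srebf2 (1.57-fold) and Insig1 (1.54-fold) and the enzyme Idi1 (1.71-fold) were lower too. Fdps, farnesyl diphosphate synthase, was 1.47-fold higher, at 228 and 334 CPM.

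Fatty acid and phospholipid synthesis had no common direction: 1 of 16 counted genes passed 1.5-fold above PBS and 3 below. The median log2 ratio was -0.06, and 0.02 when the 20 most abundant genes were left out of the total. Elovl1, a very-long-chain fatty acid elongase, stood at 761 and 1667 CPM, 2.19-fold higher (2.14 to 2.24). Scd1, the stearoyl-CoA desaturase, stood at 5615 and 5851 and Fasn, fatty acid synthase, at 497 and 669. Acsl4, a long-chain acyl-CoA synthetase, was 1.67-fold lower (1.60 to 1.73), Pcyt1a, of phosphatidylcholine synthesis, 1.54-fold (1.36 to 1.75) and Thrsp, a lipogenic regulator, 2.63-fold (2.27 to 3.05).

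Lipid uptake, lipolysis and transport genes included some of the lowest ratios. Of 13 counted, 6 were at least 1.5-fold lower and 3 higher. Lpl stood at 28.4 and 4.13 CPM, Mgll at 32.2 and 5.76, and Pon1, the paraoxonase, at 35.8 and 8.83. The fatty acid translocase Cd36 was 2.15-fold lower (2.09 to 2.21), at 905 and 421 CPM, and showed one of the 10 largest losses. The apolipoprotein genes Apoe (631 and 1018 CPM) and Apoc1 (651 and 1032) and the lipid droplet protein Plin3 (46.5 and 76.1) were higher, while the droplet protein Plin2 (124 and 81.3) was lower. Lpl is also made by lung macrophages: thinned leukocytes of the bleomycin library had a count in 29.2%, against 8.25% of PBS and 1.20% of bleomycin gated cells. Without the Sftpc limit the log2 ratio of Lpl was -1.17 against -2.77.

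Lysosomal genes were higher as a group, with 7 of 22 counted at least 1.5-fold higher, none lower and 20 above their PBS level (median log2 ratio 0.39). The cathepsins Ctsb (206 and 390 CPM), Ctsd (112 and 221), Ctsl (40.7 and 68.0) and Ctsz (202 and 333), the protective protein Ctsa (31.9 and 67.5) and the tetraspanin Cd63 (898 and 1453) were among them. Npc1, the lysosomal cholesterol exporter, was 1.44-fold lower (1.33 to 1.55), at 116 and 80.8 CPM, whereas its soluble partner Npc2 stood at 6872 and 7668.

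Nuclear and mitochondrial genes of respiration differed in direction. Of 25 nuclear oxidative phosphorylation genes 24 had ratios above 1, though 2 reached 1.5-fold, Atp5b, an ATP synthase subunit (321 and 519 CPM), and Cox5a, of cytochrome oxidase (294 and 461). All 13 mitochondrially encoded genes were below PBS, 9 of them at least 1.5-fold, with a median log2 ratio of -0.69. Together they took 5.34% of the PBS and 3.54% of the bleomycin counts. The limit on cells uses this share at 20%, and the medians over gated cells were 5.23% and 3.44%. How many cells lay near the limit was not counted.

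Glycolysis genes were mostly higher, 4 of 13 at least 1.5-fold and 1 lower. Gapdh stood at 274 and 638 CPM, 2.33-fold higher (2.24 to 2.42), Eno1, enolase, at 29.7 and 68.6, and Ldha, lactate dehydrogenase, at 442 and 687. Hk2, an inducible hexokinase, was 2.70-fold lower (2.48 to 2.93), at 121 and 44.9 CPM, beside Hk1 at 13.5 and 20.8. Among NRF2 antioxidant genes 3 of 18 were higher and 3 lower at 1.5-fold; Gsta4 (76.3 and 148 CPM) and Gstm1 (166 and 78.9), both glutathione transferases, went opposite ways.

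Ribosomal protein genes took 15.7% of the PBS and 11.6% of the bleomycin counts, and 80 of 84 were below PBS, with a median log2 ratio of -0.39. The elongation factor Eef1a1 (3256 and 2275 CPM), the growth-related protein Tpt1 (2208 and 1669) and Eif1 (2127 and 1610) had losses among the 10 largest. Genes whose transcripts match the ribosomal protein transcript of another gene at 90% identity over 300 bases numbered 26, and 21 of them were at least 2-fold lower and none 2-fold higher. Of 60 ribosomal protein genes found by the same search through their own transcripts, none was 2-fold lower. Wdr89, 4.33-fold lower (4.20 to 4.47), is 1 of the 26: over 447 bases it is 99.3% identical to Rplp2, so part of its counts may belong to that gene. Without ribosomal protein genes and their sequence matches, 138 genes were 2-fold lower, against 160.

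Bex and Tceal genes, small X-linked adaptor proteins, had the lowest list median, -2.21. Of 5 counted, 4 were at least 1.5-fold lower: Bex1, Bex2 (491 and 106 CPM), Bex4 (485 and 93.8) and Tceal8 (151 and 62.9). Ngfrap1, also called Bex3, stood at 267 and 334 CPM. In cells thinned to 3000 counts Bex4 had a count in 73.7% of PBS cells (71.7 to 75.6) and 21.2% of bleomycin cells (19.5 to 22.96), against 2.08% of the bleomycin leukocytes (0.0527 to 11.1). The median cell held 4 counts of the list in PBS and 1 in bleomycin.

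**Figure D4:**
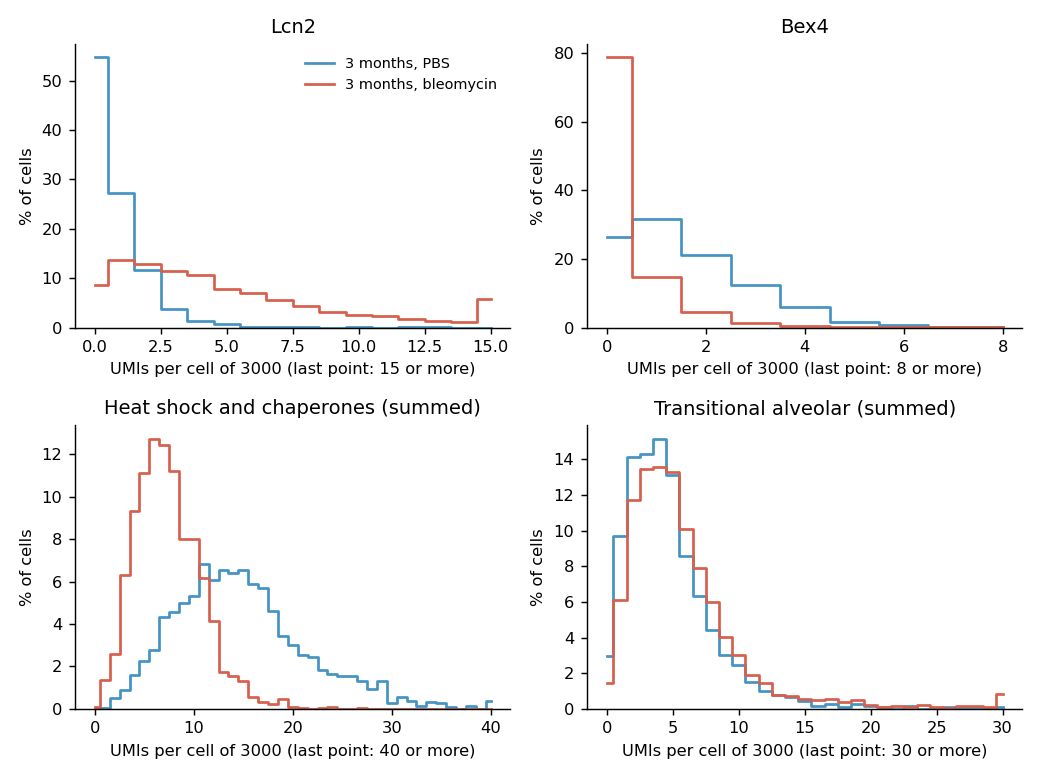
Distribution over gated cells of the 3-month libraries, each cell thinned to 3000 counts (1952 PBS and 2244 bleomycin cells), of counts of Lcn2, of Bex4, and of the summed heat shock and transitional alveolar lists; the vertical axis is the percentage of cells. The Lcn2, Bex4 and heat shock curves are displaced over most cells, while the transitional curves overlap, with medians of 4 and 5, and differ in the upper tail.

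Per-cell shares depend on the level of a gene as well as on how many cells express it. For genes of low level, a small share therefore does not show that few cells express them. Lcn2 had a count in 45.3% of thinned PBS cells (43.1 to 47.6) and 91.4% of bleomycin cells (90.2 to 92.5), and Lrg1 in 31.8% and 84.0%. Leukocytes of the bleomycin library, with a median of 4412 counts, had Lcn2 in 41.7% (27.6 to 56.8) and Lrg1 in 47.9% (33.3 to 62.8), lower than the gated bleomycin cells. Of the PBS leukocytes 2 reached 3000 counts, too few for such a reference. Saa3 was in 0.102% of PBS and 3.48% of bleomycin cells, against 4.17% of the 48 thinned leukocytes (0.509 to 14.3), and Cldn4 in 0.0512% and 1.47%, against 2.08% (0.0527 to 11.1), so these few leukocytes set no narrow background level. In bleomycin cells with 5 to 10% Sftpc, Saa3 stood at 45.2 CPM, with 10 to 15% at 90.3, with 15 to 20% at 16.2 and above that at 12.4. The largest Saa3 count in a thinned bleomycin cell was 53, while the 99th percentile was 1, so single cells weigh on its level. Kng2 was in 0.307% and 5.62% and Meg3 in 0.0512% and 4.86%, with none of 48 leukocytes holding either, which allows up to 7.40% by the interval. Unthinned, Meg3 was in 6.92% of bleomycin gated cells and 4.48% of 67 leukocytes, and Kng2 in 12.1% and 2.99%. Unthinned, Lcn2 was in 53.2% of PBS and 97.9% of bleomycin cells.

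Of 10 counted FGF and ERK feedback genes 3 were at least 1.5-fold lower, Fgfbp1 (65.4 and 28.2 CPM), which releases FGFs from matrix, Spry2 (135 and 72.0) and Spry1 (112 and 71.1), while Ccnd1, cyclin D1, was 1.73-fold higher (1.61 to 1.86). The Wnt feedback genes Nkd1 (203 and 104 CPM) and Znrf3 (25.5 and 8.69) were 1.962-fold and 2.94-fold lower, with 4 of 20 members counted. In the Notch list Notch2 (37.4 and 19.1 CPM) and the ligand Jag1 (32.4 and 18.2) were lower and the target Hes1 (90.6 and 136) was higher.

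Of 10 counted TGF-beta and BMP genes 2 were at least 1.5-fold higher, Id1 (13.1 and 46.0 CPM) and Id3 (10.5 and 26.4), inhibitors of bHLH factors. The decoy receptor Bambi (148 and 75.7) was the 1 lower member. Id1 and Id3 were counted only through their bleomycin level. Epithelial matrix genes were higher in 4 of 11, with Col6a1 at 42.3 and 108 CPM, the laminin chain Lamb3 at 33.1 and 53.8 and Sparc at 226 and 341. Mesenchymal markers summed to 12.1 CPM or less, and the part of mesenchymal RNA in these differences was not tested. Igfbp6, which binds IGF-II, was 5.37-fold lower (4.84 to 5.96), at 127 and 23.7 CPM, and Igfbp7 stood at 307 and 205. Without the Sftpc limit the log2 ratio of Igfbp6 was -1.31 against -2.42. Among imprinted genes, Phlda2 (28.2 and 12.7 CPM) and Igf2r (33.8 and 21.3) were lower and Gnas stood at 706 and 705.

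Ion transport genes had a median log2 ratio of 0.02, and 1 of 16 passed 1.5-fold above PBS and 3 below. Slc26a4 stood at 5.60 and 39.9 CPM. The potassium channel Kcnj15 was 2.29-fold lower (2.15 to 2.44), at 191 and 83.3 CPM, the chloride channel Cftr 2.10-fold (1.88 to 2.35), at 61.5 and 29.2, and the cotransporter Slc12a2 1.67-fold (1.58 to 1.76). Of 15 junction genes 1 passed 1.5-fold, Cdh1, E-cadherin, at 284 and 186 CPM. The claudin Cldn3 stood at 570.4 and 793 CPM.

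At 12 months the bleomycin to PBS ratios of the same genes came from libraries that share no sample with the 3-month ones. Over 4701 genes counted there, 328 (6.98%) passed 2-fold above PBS and 186 (3.96%) below; at 1.5-fold 873 were higher (18.6%) and 496 lower (10.6%). Of the 130 genes higher at 3 months 91 were also among the 328 (70.0% of the first list and 27.7% of the second), and of the 160 lower genes 78 were among the 186 (48.8% and 41.9%); no gene counted at both ages was 2-fold in opposite directions. Across the 4458 genes counted at both ages the log2 ratios had a Pearson correlation of 0.78 and a Spearman correlation of 0.77, given as a description, since genes are not independent and at both ages bleomycin had the deeper library and the later day.

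Many of the extreme genes had like ratios at both ages. Kng2 was at a log2 ratio of 4.99 at 3 months and 4.38 at 12, Itm2a at 3.83 and 3.60, Lrg1 at 2.80 and 2.51, Col6a2 at 2.69 and 2.62, Ppp1r1a at -2.54 and -2.26 and Bex4 at -2.37 and -2.69. The difference between ages was larger for others. Fgg stood at 2.82 and 0.56 (difference 2.26, 1.74 to 2.78) and Tspan4 at 2.68 and 0.77 (1.91, 1.56 to 2.27). Ifitm3 stood at 2.12 and 4.80 (-2.68, -3.05 to -2.31), H2-Eb1, a class II beta chain, at 0.66 and 4.15 (-3.50, -3.75 to -3.25) and Mt2, a metallothionein, at 0.01 and 2.73. Cox6a2, a cytochrome oxidase subunit, stood at -0.45 and -2.58 and Cbr2 at -0.35 and -2.02. With 1 library per group these differences were not tested, and their intervals cover counting error only. At 12 months 7 gated PBS cells and 991 of 2450 gated bleomycin cells held 5 or more counts of leukocyte markers. Macrophage markers summed to 23.5 CPM in 12-month PBS and 120 in 12-month bleomycin, and B cell markers to 27.3 and 146. The part of leukocyte RNA in the 12-month ratios was not tested.

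Lists can be set beside each other in the same way. The median log2 ratio at 3 and 12 months was 1.06 and 0.98 for acute phase genes, 0.82 and 1.05 for class I, 0.69 and 1.05 for class II, 0.56 and 1.49 for transitional genes, 0.43 and 1.11 for p53 genes, and 0.90 and 2.52 for interferon genes. It was -0.44 and -0.57 for cholesterol genes, -0.28 and -0.74 for lipid uptake genes, -0.69 and -1.38 for mitochondrially encoded genes and -2.21 and -2.68 for Bex and Tceal genes. For heat shock genes it was -1.08 over 22 genes and 0.21 over 17, for clock genes 0.14 over 10 and -0.70 over 8, and for proliferation genes -0.42 and 0.85. The 12-month medians cover only members counted at both ages. Hspa1a, Hspa1b, Hsph1, Hspa4l and Chordc1 are thus missing from the 12-month heat shock median. The median over all counted genes was -0.01 at 3 months and 0.10 at 12.

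**Figure D5:**
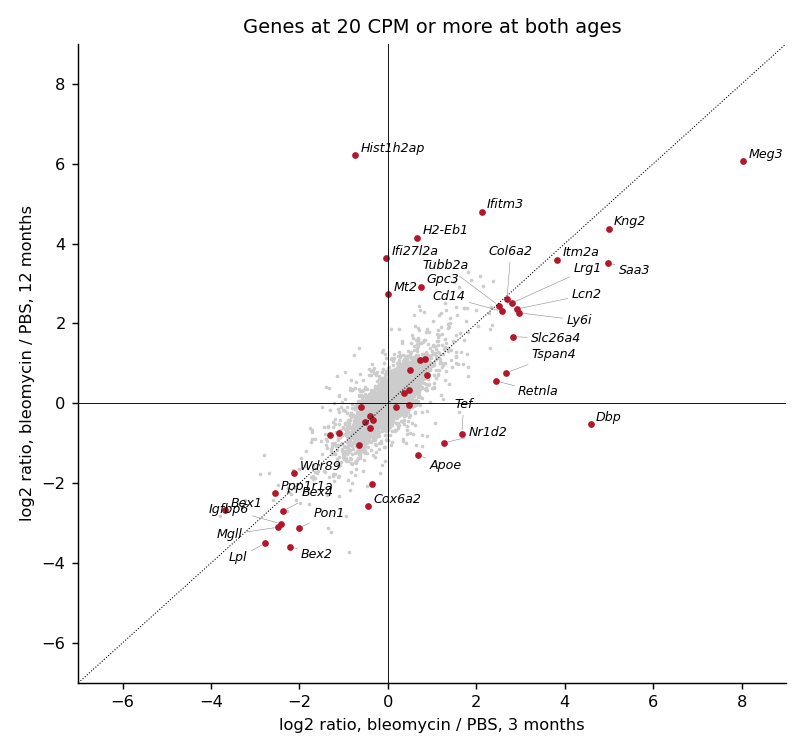
Log2 ratio of bleomycin to PBS at 12 months against that at 3 months for the 4458 genes counted at both ages; red points are genes named by their ratio, their difference in CPM or their difference between the ages, and the dotted line marks equal ratios. Kng2, Itm2a and Bex4 lie near the line, Dbp far below it and Hist1h2ap far above it.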

How the data were processed

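Droplet (10x) 3' RNA libraries of sorted lung cells were deposited by the authors as matrices of raw counts per gene and barcode. Cell Ranger, whose version is not given in the sources used here, Seurat 3.2.2 and the build mm10 are named, per the submitters' processing notes, without their roles. The authors' filtering of barcodes is not given in the sources used here. From these counts, cells were kept by the limits stated above, summed per library and scaled to CPM. Log2 ratios carry a prior of 0.5 counts, and the intervals of ratios are exact conditional binomial at 95%. A count of 0 allows up to 3 counts. The scripts were tested on simulated data. No statistical test was made, as each group was 1 library.

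The members, gene lists and motifs were chosen with earlier results of these data known. Genes were named where they held the 15 highest or 15 lowest ratios, the 10 largest gains and losses in CPM, up to 4 members of each list by size of ratio (all members for lists on acute phase, lipid uptake, heat shock, clock, Bex, coagulation and surfactant), and the 6 highest and 6 lowest differences between ages. Ribosomal, mitochondrial, globin, immunoglobulin, predicted, Y-linked and other cell types' marker genes were left out of the ranking, with Xist and Sftpc. Genes that the text gives beyond this rule, among them some list members within 1.5-fold and genes under 20 CPM, were chosen after their values were seen. The listed symbols Cxcl11, Hes4, Bex3, Tceal9, Rian and Pclaf were not analysed here under those names.

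Per-cell shares came from cells thinned to 3000 counts, which left out 356 PBS and 55 bleomycin cells. Doublets were kept in the values above, and scanpy 1.11.5 scored them for an alternative that left out 45 PBS and 50 bleomycin gated cells. Coordinates are those of GRCm38, matched by gene identifier. Alternatives changed the scaling, level limit, cell filters, Sftpc limit, cell number and depth, doublets and gene classes. The 3 chosen after seeing the data kept cells of 4000 to 8000 counts, left out cells with 3 or more counts of other types' markers, or left out ribosomal sequence copies. Python 3.11.15, numpy 2.4.6, scipy 1.17.1 and pandas 2.3.3 were used. Some genes that the naming rule picks are not reported here.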

Additional observations from a re-analysis of the deposited data

Results flagged for a closer look

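Among 222 named genes, 7 stood at least 1.5-fold apart in opposite directions at 3 and 12 months, with 1 library per group, so the difference between ages was not tested and its intervals cover counting error only. Some of the named genes were picked for a large difference between the ages, so this count gives no share over all genes. Hist1h2ap, a replication-dependent histone gene, stood at 23.7 CPM in PBS and 14.2 in bleomycin at 3 months and at 0.376 and 30.7 at 12 months, a difference of log2 ratios (3 minus 12 months) of -6.95 (-8.19 to -5.72). Its 3-month log2 ratio of -0.74 was -3.57 without cells holding any other cell type's marker. Stmn1, which destabilises microtubules and is high in dividing cells, stood at 60.2 and 138 CPM at 12 months, a difference of -1.98 (-2.13 to -1.82).

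The chaperone Hspa1a stood at 3.84 and 11.3 CPM at 12 months, below the level limit in both libraries, a difference of -5.77 (-6.24 to -5.30). The co-chaperone Stip1 stood at 65.2 and 29.2 CPM at 3 months and at 21.3 and 34.4 at 12 months, a difference of -1.85 (-2.09 to -1.60). Of the clock genes, Tef stood at 21.97 and 13.0 CPM at 12 months (difference 2.43, 2.04 to 2.83) and Nr1d2 at 35.0 and 17.6 (2.25, 1.94 to 2.57). Apoe, the apolipoprotein E gene, stood at 1237 and 504 CPM at 12 months, a difference of 1.99 (1.93 to 2.04).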

How the results depend on the processing

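No paired analysis was possible because each group was 1 library, and for the same reason no replicate could be left out. The counts of 2-fold higher and lower genes (130 and 160) were 33 and 60 at a level limit of 100 CPM and 1232 and 672 with no level limit beyond 10 counts, by construction since fewer or more genes were counted; every other setting run stayed within 1.5 times. With scaling that left out the 20 most abundant genes they were 150 and 139, with a shift of the median of 0.08. Settings that changed only which genes were counted repeat the main ratio by construction, here and in the sign changes of named genes below. A gene under the level limit of a setting gave no value. Picked as extreme in these same data, all 30 genes named by their ratio kept their direction and passed 2-fold in the 513 values computed for them. Log2 ratios among them that moved by a factor over 1.5 included Meg3 (9.56 with stricter cell filters, 6.49 without the Sftpc limit), Saa3 (5.72 without that limit, 4.01 thinned), Retnla (3.75 with a limit of 2%, 4.81 with none, 1.53 without cells holding any other type's marker) and, in that last setting, Kng2 (5.64), Ly6i (2.37) Tspan4 (3.56) and Tle4 (-2.86); Hspa1a was -4.85 at 4000 to 8000 counts per cell. In other named genes Znrf3 was -0.85 without cells holding any other type's marker and Gstm1 -0.39 without the Sftpc limit.

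Of 3874 values for the 222 named genes 54 changed sign, in 19 genes; 13 of these belong to genes whose counting interval leaves out a ratio of 1 and are given next. Among the rest, Scgb3a2 went from -0.07 to as much as 2.55 without the Sftpc limit and Ifi27l2a from -0.04 to 0.60 at 4000 to 8000 counts per cell. Of 648 list medians 18 changed sign, in the NRF2, Notch, clock, fatty acid, imprinted, ion transport, lipid uptake and surfactant lists; the 2 whose own size was 0.2 or more are given next. Without the Sftpc limit the log2 ratio was -0.0427 for Lpcat1, -0.0464 for Scd1, -0.0128 for Hc, 0.0755 for Hopx and 0.18 for Sec14l3, and the median of imprinted genes was 0.88. Scd1 was -0.036 with every cell weighing the same and -0.0472 without cells holding other types' markers. Cxcl15 was 0.0399 with scaling that left out the 20 most abundant genes and 0.0168 with scaling without Sftpc. At 4000 to 8000 counts per cell Abca3 was 0.0485, Slc34a2 0.19, Nkx2-1 0.055 and Foxa2 0.0093. The median of lipid uptake genes was 0.22 with no level limit. The cause of these changes was not tested. At this depth a gene with no count may reach 0.275 CPM in PBS and 0.144 in bleomycin.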
